A study of Homo sapiens with 36 samples.

Results

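The genes described are 10 surface molecules through which B cells stimulate or restrain T cells: CD40, CD80, CD86, CD58, ICAM1, CD83, CD70, CD27, CD274 and PDCD1LG2. They were chosen by symbol for their role, with earlier results of these data known, and were 10 of 37549 gene symbols in the deposited counts. Their counts of calls are therefore a description beside the shares of all genes. All 10 passed the filter on low counts in every cell line and each was tested beside the other genes that passed: 17516 for MEC1, 17508 for JVM2 and 17748 for EHEB.

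T cells need a signal through the antigen receptor and further signals through costimulatory receptors, and B cells that present antigen supply both. CD40 receives help from T cells and raises the B7 molecules CD80 and CD86, the ligands of CD28 and CTLA-4. CD58 and ICAM1 hold the contact together by binding CD2 and the integrin LFA-1, whereas CD70 binds CD27, a tumour necrosis factor receptor that marks memory B cells and is also common on chronic lymphocytic leukaemia (CLL) cells. CD274 and PDCD1LG2 encode PD-L1 and PD-L2, the ligands of the inhibitory receptor PD-1. CD83 is a surface marker of activated B cells and mature dendritic cells. CLL cells are known for presenting antigen poorly unless CD40 is engaged.

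The 36 RNA sequencing libraries came from the leukaemic B lymphoblastoid cell lines MEC1, with mutated p53, and JVM2 and EHEB, both with wild-type p53. Each line received the vehicle dimethyl sulphoxide (DMSO), 50 µM of the purine analogue fludarabine, 5 µM of the Bruton tyrosine kinase inhibitor ibrutinib or 10 µM of the phosphoinositide 3-kinase δ inhibitor idelalisib, with 3 libraries per group. The study's viability assays at 72 h placed the inhibitory concentration IC50 of each drug below these doses in control MEC1 and JVM2 cells. Viability of the sequenced cultures is not given in the sources used here. MEC1 was exposed for 48 h, JVM2 for 72 h and EHEB for 96 h, so a difference between lines cannot be told apart from one of exposure time. The labels call the libraries of a group a triplicate, and the study's methods speak of independent experiments for its results in general. Neither ties single libraries to separate cultures, so the p-values set differences against the variation among these libraries and reach no further. The numbers in the titles place DMSO and fludarabine libraries in one series (MEC1_37 to MEC1_48, JVM2_85 to JVM2_96, EHEB_133 to EHEB_144) and both kinase inhibitors in another (MEC1_184 to MEC1_192, JVM2_232 to JVM2_240, EHEB_280 to EHEB_288) without DMSO, and libraries are named here by line and that number. An effect of a kinase inhibitor against DMSO and a difference between these series therefore cannot be told apart. The drugs were compared with DMSO within each line, and every comparison of 1 line shared the same DMSO libraries.

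Library totals lay between 26590705 and 53538925 counts (median 42114145). Levels are given as CPM (counts scaled to the same TMM-adjusted library size), log2 fold changes with their standard error (SE), and a gene was called at an adjusted p under 0.05 in the quasi-likelihood test of edgeR, adjusted by Benjamini and Hochberg's method over all genes tested. The 5 B cell markers MS4A1, CD79A, CD79B, CD22 and PAX5 were present in every library. Of 6 T cell markers, CD3D and CD3G were at 0 in 34 of 36 libraries each, CD3E reached at most 5.55 CPM and TRAC lay between 15.3 and 61.2 CPM. TRBC1 reached at most 10.3 CPM and CD8A at most 2.46 CPM. Among 6 myeloid markers, ITGAM (5.783 to 63.03 CPM) and CSF1R (0.367 to 5.70 CPM) were present in every library. LYZ and MPO were at 0 in 33 libraries each. CD14 was at 0 in 26 (at most 0.403 CPM) and FCGR3A at 0 in 25 (at most 0.635 CPM).

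Several promoters are shown because the genes they belong to had the largest changes (CD83, CD27, CD86), the least even level (CD274) or a small rise in several comparisons (ICAM1). RefSeq promoters of GRCh38.p14, from 250 bases before to 50 bases after a start, were found for 7 of the 10 genes, in 9 entries. CD40, CD70 and PDCD1LG2 had no entry. Each was searched on both strands for the motifs of NF-kB (11.3% of 35116 promoters hold it), AP-1 (TGANTCA, 7.71%), GAS (TTCNNNGAA, 7.66%), IRF (GAAANNGAA, 8.11%) and FOXO (GTAAACA, 3.42%). Overlapping matches were merged into 1 stretch, and capitals mark the stretches. The second CD83 promoter (chr6:14117522-14117821, plus strand) held 3 NF-kB stretches, which begin at positions −134, −76 and −51 relative to the start, and the CD27 promoter (chr12:6443642-6443941, plus strand) held 1 AP-1 match that begins at −236, relative to a RefSeq start upstream of the GENCODE start given for the gene:
CD83: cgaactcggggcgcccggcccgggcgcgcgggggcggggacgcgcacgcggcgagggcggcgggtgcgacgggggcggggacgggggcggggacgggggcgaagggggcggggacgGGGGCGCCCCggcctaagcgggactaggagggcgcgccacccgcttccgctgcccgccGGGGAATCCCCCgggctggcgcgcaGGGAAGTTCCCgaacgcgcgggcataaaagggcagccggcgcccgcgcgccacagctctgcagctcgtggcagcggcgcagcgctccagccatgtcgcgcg
CD27: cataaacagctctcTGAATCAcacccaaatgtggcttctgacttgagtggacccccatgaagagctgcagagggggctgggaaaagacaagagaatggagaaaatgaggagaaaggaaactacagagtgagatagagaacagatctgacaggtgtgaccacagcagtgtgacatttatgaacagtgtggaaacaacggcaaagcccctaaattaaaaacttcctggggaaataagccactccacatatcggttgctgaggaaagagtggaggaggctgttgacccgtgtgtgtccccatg

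Shorter stretches of 3 further promoters are given with the bases around the match, and the coordinates are those of the whole printed window. The second CD86 promoter had an NF-kB stretch (chr3:122077682-122077732), ICAM1 a GAS stretch (chr19:10271025-10271073) and CD274 an IRF stretch (chr9:5450315-5450369) and a GAS stretch (chr9:5450397-5450445), all on the plus strand:
CD86: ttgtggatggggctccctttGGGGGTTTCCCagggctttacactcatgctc
ICAM1: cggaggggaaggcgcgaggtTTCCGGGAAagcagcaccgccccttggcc
CD274 IRF: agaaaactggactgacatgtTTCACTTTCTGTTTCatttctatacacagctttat
CD274 GAS: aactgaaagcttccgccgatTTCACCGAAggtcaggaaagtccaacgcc

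The promoters of CD80 and CD58 and the first promoters of CD86 and CD83 held none of these letters in this window. These matches describe the letters of the reference genome. No binding was measured.

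Without drug, the lines differed most in CD80, CD86, CD83 and PDCD1LG2, and MEC1 had the lowest level of 8 of the 10 genes. In the DMSO libraries, 1 of the 10 genes was called higher and 9 lower in MEC1 than in JVM2, where 30.1% and 33.7% of all genes were. Against EHEB, MEC1 had 2 called higher and 8 lower, beside 31.6% and 35.8% of all genes. JVM2 had 5 called higher and 2 lower than EHEB, beside 29.6% and 29.9%. CD80 was 7.34-fold lower in MEC1 than in JVM2 (log2 fold change −2.88, SE 0.105, edgeR adjusted p = 3.38e-08), and PDCD1LG2 was 9.42-fold lower in MEC1 than in EHEB (−3.24, SE 0.123, edgeR adjusted p = 3.66e-08). CD83 went the other way and was 7.62-fold higher in MEC1 than in EHEB (2.93, SE 0.093, edgeR adjusted p = 1.39e-08). CD27 was 2.64-fold higher in MEC1 than in EHEB, and its smaller difference from JVM2 (−0.25, edgeR adjusted p = 0.00988) missed the threshold under library size scaling without TMM (−0.11, edgeR adjusted p = 0.141). The call that CD40 was higher in JVM2 than in EHEB (0.26, edgeR adjusted p = 0.0413) was lost in 5 of the alternative fits and in 7 of the fits with a library left out. Among them were those without EHEB_133 (0.17, edgeR adjusted p = 0.114), EHEB_135 (0.23, edgeR adjusted p = 0.12), JVM2_85 (0.0609), JVM2_86 (0.0872), JVM2_87 (0.106), MEC1_37 (0.0541) and MEC1_38 (0.0545), the last 5 given as adjusted p alone. The lower level of PDCD1LG2 in JVM2 than in EHEB (−0.38, edgeR adjusted p = 0.0153) was lost without EHEB_134 (edgeR adjusted p = 0.0606) or JVM2_85 (edgeR adjusted p = 0.0534). In bulk RNA, fewer cells with a gene and less of it per cell cannot be told apart.

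**Figure D1:**
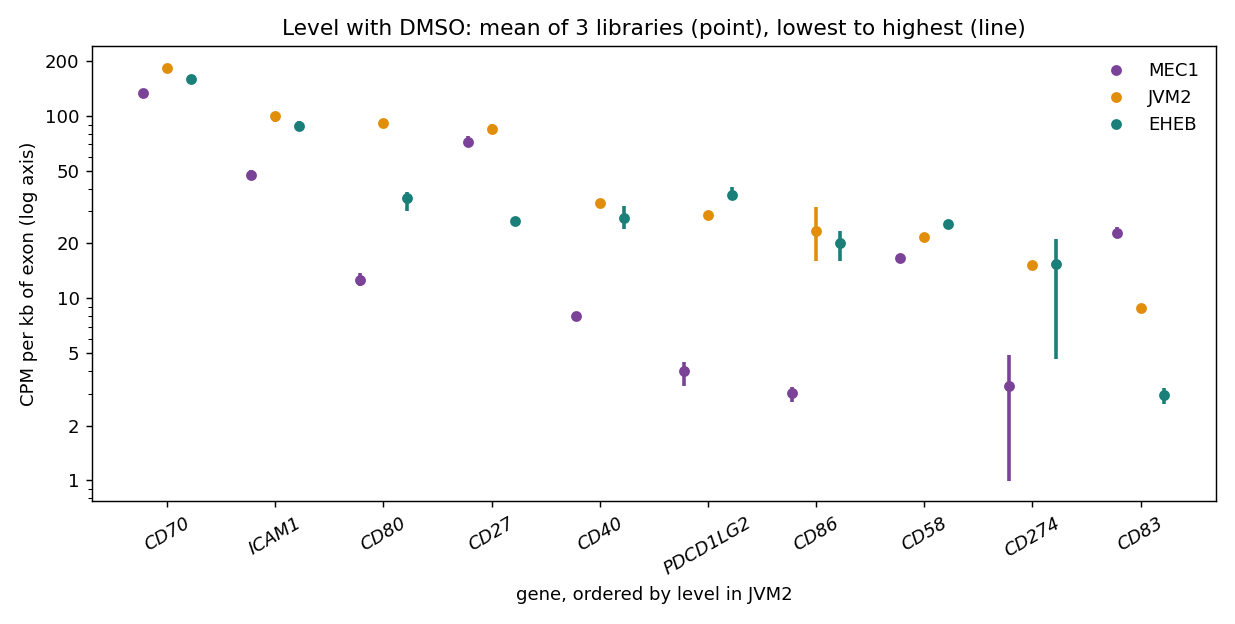
Level of each gene in the DMSO libraries, in CPM per kilobase of merged exon on a log axis, with genes ordered by their level in JVM2. Points are means of 3 libraries and lines run from the lowest to the highest library. CD70 leads in all 3 lines, CD83 is last in JVM2 and EHEB, and the long lines of CD274 in MEC1 and EHEB show its spread between libraries.

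To compare genes with each other, levels were divided by the length of their merged exons in the GENCODE release 44 annotation. The ligand CD70 had the highest level in each line, at 134.6 ± 4.45 CPM per kilobase in MEC1, 182.8 ± 5.12 in JVM2 and 159.7 ± 6.25 in EHEB (SD, n = 3). Its receptor CD27 came second in MEC1 with 71.96 ± 5.09, after ICAM1 and CD80 in JVM2 with 84.87 ± 5.06 and in the middle of the order in EHEB with 26.72 ± 0.291 CPM per kilobase. In JVM2 the libraries of ICAM1 (92.86 to 104.2), CD80 (87.45 to 94.63) and CD27 (80.74 to 90.51 CPM per kilobase) overlapped with their neighbours in that order. In EHEB the 5 genes PDCD1LG2 (36.86 ± 3.68), CD80, CD40, CD27 and CD58 (25.48 ± 1.52 CPM per kilobase) each overlapped with the next, and CD86 (20.02 ± 3.67) lay below CD58 and overlapped with CD274. CD83 was lowest in JVM2 (8.89 ± 0.28) and EHEB (2.936 ± 0.297 CPM per kilobase). In MEC1 the lowest mean was that of CD86 (3.009 ± 0.289), but the libraries of CD274 (3.318 ± 2.05 CPM per kilobase) lay on both sides of it, so their order was not settled. With the longest annotated transcript as length, 20 of the 30 levels moved by more than their SD. CD70 still led in each line (226.1 in MEC1, 307.0 in JVM2 and 268.3 in EHEB), whereas the order in EHEB turned to CD40 (46.61), CD80 (41.8) and PDCD1LG2 (36.86), and in MEC1 CD274 (3.751) came below CD86 (3.803 CPM per kilobase).

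With fludarabine some of the genes rose and others fell in every line. CD83 rose and CD27 fell in all 3. In MEC1, 4 of the 10 genes were higher and 2 lower, beside 21.2% and 22.7% of all genes tested. JVM2 had 4 higher and 3 lower, beside 23.9% and 23.3%, and EHEB 6 higher and 1 lower, beside 18.4% and 19.2%. The median log2 fold change of the 10 genes was 0.22 in MEC1, 0.12 in JVM2 and 0.41 in EHEB, where that of all genes tested was 0.056, 0.056 and 0.020. Library size scaling without TMM raised the median of all genes to 0.31 in MEC1, 0.26 in JVM2 and 0.13 in EHEB. In MEC1, 74.1% of all calls were then rises (48.4% with TMM), and 7 of the 10 genes were called higher and 2 lower. The added calls of CD80 (0.28), CD58 (0.26) and ICAM1 (0.29) lay below the median of all genes under that scaling. JVM2 had 69.1% (50.6% with TMM) with 5 genes higher and 1 lower, and EHEB 61.8% (48.9% with TMM) with 7 higher and 1 lower.

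The kinase inhibitors called most of the genes higher in MEC1 and few in JVM2. With ibrutinib, 7 of 10 were higher and 0 lower in MEC1 (23.7% and 23.9% of all genes), 2 higher and 2 lower in JVM2 (14.5% and 15.0%), and 5 higher and 1 lower in EHEB (8.50% and 11.2%). Idelalisib gave 7 higher and 0 lower in MEC1 (27.6% and 27.4%), 3 higher and 2 lower in JVM2 (21.6% and 22.6%), and 5 higher and 0 lower in EHEB (15.1% and 18.2%). The medians of the 10 genes were 0.79 and 1.03 in MEC1 with ibrutinib and idelalisib, beside 0.060 and 0.081 over all genes, and lay between 0.099 and 0.32 in the other lines, beside medians of all genes from −0.0014 to 0.026. Under library size scaling, the share of higher calls among all calls rose from 43.1% to 65.4% (ibrutinib) and from 45.3% to 59.6% (idelalisib) in EHEB, and from 49.1% to 62.2% and from 48.8% to 59.5% in JVM2. In MEC1 it went from 49.7% to 56.8% with ibrutinib and from 50.2% to 43.6% with idelalisib. The 10 genes were then split 6 to 1 and 6 to 0 in EHEB, 3 to 1 and 3 to 1 in JVM2 and 7 to 0 and 6 to 0 in MEC1, higher to lower. That scaling moved the median of all genes to 0.11 with each inhibitor in EHEB, to 0.072 and 0.13 in JVM2 and to 0.13 and −0.013 in MEC1, with ibrutinib and idelalisib in that order.

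**Figure D2:**
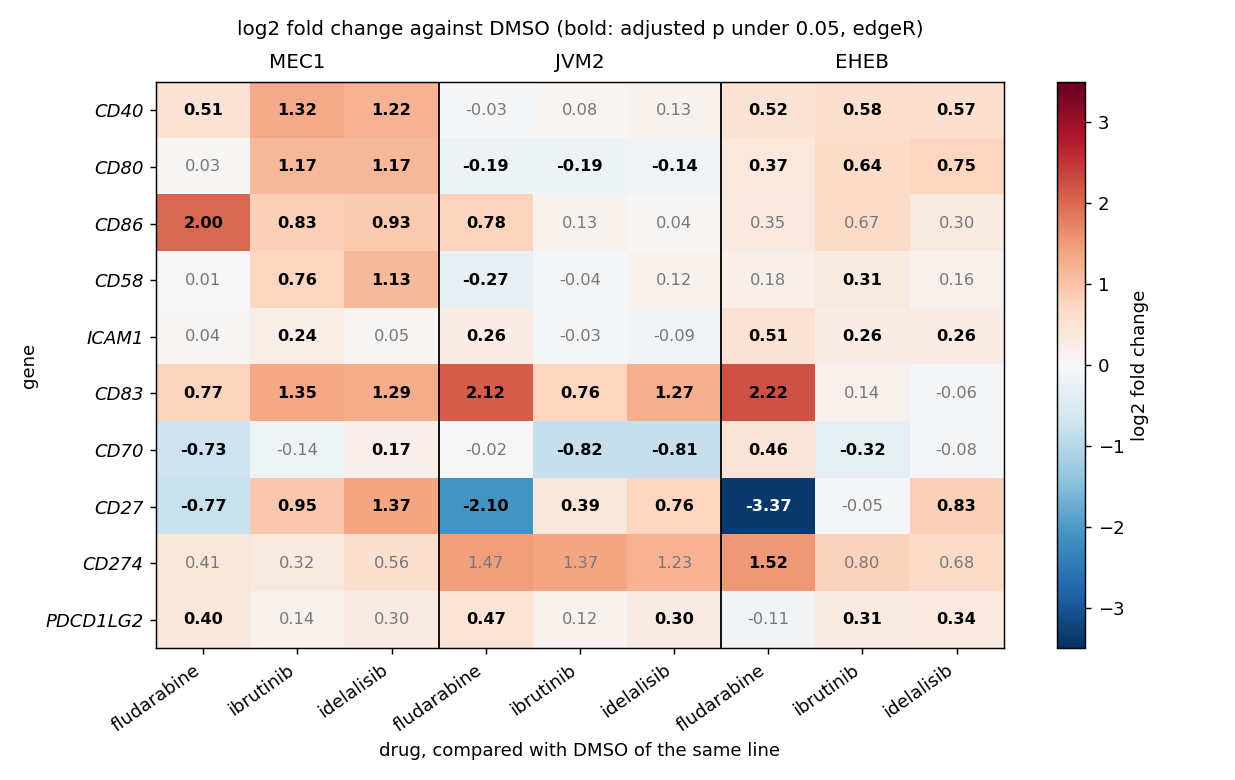
log2 fold change of each gene (rows) with each drug against DMSO of the same line (columns, grouped by line), with the colour scale from blue (lower) to red (higher). Bold numbers passed an adjusted p of 0.05 in edgeR. CD83 with fludarabine and CD27 with fludarabine stand at opposite ends of the scale, at 2.22 and −3.37 in EHEB, and the ibrutinib and idelalisib columns of MEC1 each hold 7 bold rises and 0 bold falls.

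CD40, the receptor for T cell help (chromosome 20, 46118271 to 46129863, plus strand, GRCh38), rose in MEC1 and EHEB with every drug and passed no test in JVM2. In MEC1 its level was 46, 46 and 42.5 CPM with DMSO, 56.3, 69.3 and 70.2 with fludarabine, 114.3, 101.7 and 109.5 with ibrutinib and 104.5, 95.6 and 100.8 with idelalisib. All treated MEC1 libraries were above all DMSO libraries. The rise was 2.5-fold with ibrutinib (1.32, SE 0.086, edgeR adjusted p = 5.76e-07), 2.34-fold with idelalisib (1.22, edgeR adjusted p = 5.24e-07) and 1.43-fold with fludarabine (0.51, SE 0.085, edgeR adjusted p = 0.000547). In EHEB, the DMSO libraries had 134.6, 179.7 and 152.6 CPM, and the groups with drug averaged 221.2 ± 5.40 with fludarabine, 233.3 ± 26.5 with ibrutinib and 231.9 ± 50.7 CPM with idelalisib (SD, n = 3). The EHEB differences of 0.52, 0.58 and 0.57 passed the test at edgeR adjusted p = 0.0168, 0.0183 and 0.0124, but those of 2 drugs rested on single libraries. With fludarabine the call was lost without EHEB_133 (0.42, edgeR adjusted p = 0.072) or EHEB_135 (0.50, edgeR adjusted p = 0.0518), and with ibrutinib without EHEB_133 (0.49, 0.0674), EHEB_135 (0.57, 0.0514), EHEB_280 (0.51, 0.0683) or EHEB_281 (0.56, 0.055). JVM2 averaged 188.3 ± 6.06 CPM with DMSO and 182.5 to 206.8 CPM with the drugs, and its log2 fold changes lay between −0.034 and 0.13.

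CD83 (chromosome 6, 14117256 to 14136918, plus strand), whose second promoter carries the NF-kB stretches shown above, had the largest rises of the 10 genes. In EHEB it went from 7.708, 6.29 and 6.999 CPM with DMSO to 29.98, 34.67 and 32.24 with fludarabine. JVM2 had 21.7, 21.4 and 20.4 CPM with DMSO and 86.5, 89.8 and 97.1 with fludarabine. All fludarabine libraries of both lines were above all DMSO libraries. The rise was 4.65-fold in EHEB (2.22, SE 0.11, edgeR adjusted p = 8.36e-08) and 4.33-fold in JVM2 (2.12, SE 0.07, edgeR adjusted p = 2.39e-09). MEC1 began at a higher level, with 51.6, 53.3 and 58.4 CPM, and rose 1.71-fold to 98.8, 92.8 and 93.9 (0.77, SE 0.07, edgeR adjusted p = 6.11e-06). Ibrutinib and idelalisib raised CD83 in MEC1 by 2.55-fold and 2.45-fold (edgeR adjusted p = 1.26e-07 and 1e-07) and in JVM2 by 1.70-fold and 2.4-fold (edgeR adjusted p = 2.35e-05 and 1.93e-07). EHEB stayed close to its DMSO level with both, at 7.73 ± 0.911 and 6.77 ± 0.199 CPM beside 6.999 ± 0.709 (0.14 and −0.056, edgeR adjusted p = 0.40 and 0.731).

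CD80 and CD86, the ligands of CD28, both rose with both kinase inhibitors in MEC1, where fludarabine raised CD86 alone. In EHEB only CD80 was called. CD80 (chromosome 3, 119524293 to 119559614, minus strand) rose with both kinase inhibitors in MEC1, from 37.5, 44.3 and 40.0 CPM to 81.92, 94.03 and 89.9 with ibrutinib and 91.4, 81.4 and 90.0 with idelalisib, whereas fludarabine left it at 47.88, 42.46 and 36.99. Both rises were 2.25-fold (1.17 each, SE 0.106, edgeR adjusted p = 5.33e-06 and 3.31e-06). In EHEB it went from 122.6, 123.3 and 97.4 CPM to 197.8, 186.2 and 152.9 with ibrutinib and 194.6, 194.0 and 193.0 with idelalisib, which is 1.56-fold (0.64, edgeR adjusted p = 0.0026) and 1.69-fold (0.75, edgeR adjusted p = 0.000445). Its smaller rise with fludarabine in EHEB (0.37, edgeR adjusted p = 0.0244) was lost without EHEB_135 (0.26, 0.0966), EHEB_143 (0.28, 0.111) or EHEB_144 (0.38, 0.0524), and with no filter on low counts (0.34, 0.0514). JVM2, the line with the highest CD80, averaged 295.6 ± 12.7 CPM with DMSO (SD, n = 3), with averages of 257.0 ± 1.86, 261.7 ± 3.66 and 269.8 ± 13.3 with fludarabine, ibrutinib and idelalisib. These decreases of −0.19, −0.19 and −0.14 passed the test (edgeR adjusted p = 0.00338, 0.00708 and 0.0221), but the first turned to 0.0095 (edgeR adjusted p = 0.871) under library size scaling, and the others missed the threshold there (0.0834 and 0.545). All 3 also missed it in the joint fit of all lines (0.0994, 0.217 and 0.317). The idelalisib call was lost without JVM2_86 (−0.12, 0.0784), JVM2_87 (−0.13, 0.0699), JVM2_238 (−0.10, 0.113) or JVM2_239 (−0.11, 0.109). CD80 overlaps TIMMDC1 on the other strand by 798 bases, and whether strand was used in counting is not given in the sources used here. In MEC1 TIMMDC1 was also called higher with ibrutinib (0.99, edgeR adjusted p = 0.00143) and idelalisib (0.86, edgeR adjusted p = 0.0029), and its part in the CD80 values was not tested.

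CD86 (chromosome 3, 122055362 to 122121139, plus strand) rose mainly in MEC1, where it was low. Its level there was 10.6, 9.25 and 11.2 CPM with DMSO, 39.7, 41.7 and 45.8 with fludarabine, 16.9, 16.7 and 19.7 with ibrutinib and 20.3, 15.8 and 20.5 with idelalisib. No treated library overlapped with DMSO, and fludarabine lay apart from both inhibitors. The changes were 4.01-fold (2.0, SE 0.122, edgeR adjusted p = 4.5e-07), 1.77-fold (0.83, edgeR adjusted p = 0.000179) and 1.90-fold (0.93, edgeR adjusted p = 5.35e-05). In JVM2 its DMSO libraries spread from 54.9 to 109.4 CPM and those with fludarabine from 106.3 to 161.3, so the groups overlapped. The difference (0.78, SE 0.277, edgeR adjusted p = 0.0377) was lost without JVM2_86 (0.76, 0.0966), JVM2_87 (0.57, 0.129), JVM2_94 (0.65, 0.12), JVM2_95 (0.74, 0.0913) or JVM2_234 (0.78, 0.0529). In EHEB no drug passed the test, and the largest difference was that with ibrutinib, at 73.9, 111.0 and 144.2 CPM beside 55.3, 80.3 and 70.8 (0.67, edgeR adjusted p = 0.0556). It passed in 4 alternative fits and without EHEB_280 (0.89, edgeR adjusted p = 0.00968).

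Of the adhesion ligands, CD58 (chromosome 1, 116514534 to 116571039, minus strand) rose in MEC1 with both kinase inhibitors. It had 30.04, 30.6 and 28.2 CPM with DMSO, 33.3, 29.3 and 28.9 with fludarabine, 45.6, 50.3 and 49.6 with ibrutinib and 67.2, 56.4 and 63.0 with idelalisib. The treated groups formed separate steps, 1.69-fold above DMSO with ibrutinib (0.76, SE 0.087, edgeR adjusted p = 3.23e-05) and 2.19-fold with idelalisib (1.13, SE 0.088, edgeR adjusted p = 1.07e-06). In EHEB ibrutinib gave 1.24-fold (0.31, edgeR adjusted p = 0.00973), with 58.7, 58.3 and 52.5 CPM beside 42.8, 48.2 and 45.3. In JVM2 fludarabine lowered it from 38.62 ± 1.90 to 31.69 ± 2.23 CPM (−0.27, edgeR adjusted p = 0.019), a call that was lost under library size scaling (−0.074, 0.568) and without JVM2_85 (−0.24, 0.0682), JVM2_94 (−0.23, 0.0733) or JVM2_95 (−0.26, 0.0577).

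ICAM1 (chromosome 19, 10271093 to 10286615, plus strand) moved little. Its largest change was with fludarabine in EHEB, from 291.9, 325.5 and 291.7 CPM to 432.2, 442.7 and 405.0, a rise of 1.42-fold (0.51, SE 0.067, edgeR adjusted p = 0.000123). JVM2 had 320.2, 353.6 and 359.1 CPM with DMSO and 429.7, 408.3 and 393.0 with fludarabine, 1.2-fold more (0.26, edgeR adjusted p = 0.00517). In both lines the fludarabine libraries stood above all DMSO libraries. Rises of 0.26 with each kinase inhibitor in EHEB passed the test (edgeR adjusted p = 0.0187 and 0.0129) and were lost with ibrutinib without EHEB_133 (0.24, 0.0643) or EHEB_135 (0.24, 0.0591), and with idelalisib without EHEB_287 (0.23, 0.051). The rise with ibrutinib in MEC1 (0.24, edgeR adjusted p = 0.0123) overlapped with DMSO and was lost with no filter on low counts (0.0733) and without MEC1_37 (0.21, 0.054), MEC1_39 (0.21, 0.0506) or MEC1_184 (0.16, 0.0754).

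CD70 and its receptor CD27 answered to the drugs differently. CD70 (chromosome 19, 6583183 to 6604103, minus strand), a ligand of the tumour necrosis factor family, fell in JVM2 with both kinase inhibitors, from 271.0, 281.7 and 286.3 CPM to 159.0, 155.0 and 165.2 with ibrutinib and 165.0, 161.7 and 153.6 with idelalisib. The levels of both groups lay well under all DMSO libraries and overlapped with each other, at 1.76-fold lower (−0.82, SE 0.05, edgeR adjusted p = 2.45e-06) and 1.75-fold lower (−0.81, SE 0.05, edgeR adjusted p = 4.62e-07). Fludarabine left it at 281.8, 283.3 and 256.2 CPM in JVM2 (−0.020, edgeR adjusted p = 0.773), which library size scaling turned to 0.18 (edgeR adjusted p = 0.00543), below the median of all genes of 0.26 under that scaling. In MEC1 fludarabine lowered CD70 1.66-fold, from 208.4, 198.3 and 211.3 to 123.2, 128.1 and 129.1 CPM (−0.73, SE 0.065, edgeR adjusted p = 5.33e-06). EHEB went the opposite way with it, from 236.9, 241.1 and 255.2 to 332.3, 325.1 and 340.7 CPM, 1.37-fold higher (0.46, SE 0.049, edgeR adjusted p = 2.46e-05). With ibrutinib EHEB had 186.2, 196.7 and 203.3 CPM (−0.32, edgeR adjusted p = 0.000958). The slight rise with idelalisib in MEC1 (0.17, edgeR adjusted p = 0.0397) overlapped with DMSO and was lost in 4 alternative fits and in 10 with a library left out, in which its adjusted p reached 0.222 without MEC1_192. In full, those were the fits without MEC1_37, MEC1_38, MEC1_39, MEC1_46, MEC1_47, MEC1_48, MEC1_184, MEC1_186, MEC1_190 or MEC1_192, with values from 0.11 to 0.19. Ibrutinib in MEC1 gave −0.14 (edgeR adjusted p = 0.0915), which passed in the joint fit (−0.19, 0.00619) and without MEC1_191 (−0.14, 0.0396).

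CD27 (chromosome 12, 6444955 to 6451718, plus strand) had the largest change of the 10 genes and fell with fludarabine in every line. EHEB went from 35.01, 35.75 and 35.2 CPM with DMSO to 3.86, 3.53 and 2.82 with fludarabine, JVM2 from 106.7, 110.2 and 119.7 to 26.9, 29.0 and 22.1, and MEC1 from 102.7, 89.8 and 92.9 to 55.7, 58.8 and 56.0. In each line all fludarabine libraries were below all DMSO libraries, by 10.3-fold in EHEB (−3.37, SE 0.114, edgeR adjusted p = 8.41e-09), 4.28-fold in JVM2 (−2.10, SE 0.092, edgeR adjusted p = 1.8e-08) and 1.71-fold in MEC1 (−0.77, SE 0.068, edgeR adjusted p = 4.84e-06). The EHEB value rests on 105 to 117 counts per fludarabine library and 1390 to 1559 per DMSO library.

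Idelalisib raised CD27 in all 3 lines: to 243.4, 217.8 and 245.7 CPM in MEC1, an average of 191.3 ± 0.712 in JVM2 and 61.8, 67.4 and 60.8 in EHEB. The rises were 2.59-fold (1.37, SE 0.068, edgeR adjusted p = 6.16e-08), 1.70-fold (0.76, SE 0.088, edgeR adjusted p = 4.36e-05) and 1.78-fold (0.83, SE 0.10, edgeR adjusted p = 8.24e-05). With ibrutinib CD27 rose in MEC1 to an average of 177.9 ± 9.41 CPM (SD, n = 3) (0.95, edgeR adjusted p = 1.01e-06) and in JVM2 to 159.6, 147.9 and 136.8 CPM (0.39, edgeR adjusted p = 0.00663), whereas EHEB stayed at 35.1, 30.9 and 36.3 CPM (−0.052, edgeR adjusted p = 0.771). The antisense gene CD27-AS1 overlaps nearly the whole of CD27 (6653 bases) and, without strand in the counting, reads of the pair could not be told apart. CD27-AS1 itself had 10.63 ± 0.259 CPM with DMSO and 13.04 ± 2.33 with fludarabine in EHEB (0.31, edgeR adjusted p = 0.123), 22.40 ± 2.31 and 18.66 ± 2.99 in JVM2 (−0.25, 0.123) and 10.38 ± 1.28 and 10.59 ± 0.718 in MEC1 (−0.0032, 0.987). With idelalisib CD27-AS1 was called higher in MEC1 (1.13, edgeR adjusted p = 1.02e-05) and EHEB (0.71, edgeR adjusted p = 0.00297), the sign of CD27, and not in JVM2 (−0.22, edgeR adjusted p = 0.183). With ibrutinib it was called higher in MEC1 (0.68, edgeR adjusted p = 0.000651) and in EHEB (0.49, edgeR adjusted p = 0.0342), where CD27 was not called. In JVM2, where CD27 rose with ibrutinib, CD27-AS1 gave −0.33 (edgeR adjusted p = 0.0731).

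CD27 fell with fludarabine alongside the B cell markers, whose part in the fall was not tested. The summed level of the 5 markers in EHEB was 1529 to 1590 CPM with DMSO and 850.5 to 952.2 with fludarabine. In JVM2 it was 1199 to 1213 and 605.8 to 676.7 CPM, and in MEC1 881.1 to 946 and 805.7 to 825 CPM. Of the 5, fludarabine lowered 5 in EHEB, 5 in JVM2 and 3 in MEC1, where it raised 1. Of all genes, 19.2%, 23.3% and 22.7% were called lower in these lines, and 21.2% higher in MEC1. The same marker sum moved up in MEC1 with the rises of CD40, CD80, CD58, CD83 and CD27. It was 1313 to 1540 CPM with ibrutinib, with 5 of 5 markers called higher, beside 23.7% of all genes. Idelalisib gave 1364 to 1404 CPM and 3 of 5 higher, beside 27.6%. In EHEB, CD40 and CD80 were also called higher with both inhibitors, and CD27 with idelalisib. The sum there was 1474 to 1648 and 1505 to 1561 CPM, with 0 of 5 markers called. All genes had 8.5% higher and 11.2% lower with ibrutinib, and 15.1% and 18.2% with idelalisib. The part of the marker sum in these rises was not tested.

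The sum of the 6 myeloid markers, mostly ITGAM, moved up with the rises of CD83 under fludarabine in each line. CD86 rose clearly with fludarabine in MEC1 alone. Its JVM2 call was lost without single libraries, and EHEB did not pass (0.35, edgeR adjusted p = 0.241). The marker sum went from 6.668–8.277 to 25.07–29.0 CPM in MEC1, reached 40.2–41.49 CPM in JVM2 (10.99–13.95 with DMSO) and 53.99–63.99 CPM in EHEB (20.5–24.92 with DMSO). With ibrutinib and idelalisib it was 27.53–31.51 and 39.72–42.53 CPM in MEC1, 17.65–19.79 and 37.04–40.93 in JVM2, and 21.88–24.38 and 23.91–27.8 in EHEB. ITGAM had 5.783 to 63.03 and CSF1R 0.367 to 5.70 CPM per library, while LYZ and MPO were at 0 in 33 of 36 libraries. With fludarabine, 3 of 3 myeloid markers tested were called higher in MEC1, 1 of 2 in JVM2 and 1 of 2 in EHEB. Of all genes, 21.2%, 23.9% and 18.4% were. Of 6 T cell markers, 4 were tested in MEC1 and 3 of them were called higher there with fludarabine, with a sum of 54.17 to 61.35 CPM beside 41.06 to 45.76 with DMSO. The sum over all libraries lay between 21.02 and 61.4 CPM. It was lower in MEC1 with ibrutinib (21.02–24.39 CPM) and idelalisib (24.73–29.53 CPM). JVM2 had 56.93–61.4 CPM with DMSO and 35.23–43.08, 40.16–43.73 and 39.78–44.81 with fludarabine, ibrutinib and idelalisib. EHEB had 45.68–48.08 CPM with DMSO and 35.46–46.86, 24.81–28.22 and 22.05–27.13 in that order.

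CD274 and PDCD1LG2, neighbours on chromosome 9 (5450503 to 5470566 and 5510531 to 5571282, plus strand), were measured with very different evenness. CD274 had 86.5, 84.9 and 19.0 CPM in the EHEB DMSO libraries, 16.81, 19.98 and 4.098 in those of MEC1, and 60.4, 65.6 and 61.7 in those of JVM2. In JVM2 it had 78.56, 75.01 and 358.8 CPM with fludarabine, 48.8, 217.2 and 220.6 with ibrutinib and 205.0, 194.6 and 39.9 with idelalisib. MEC1 had 25.2, 5.73 and 19.1 CPM with ibrutinib. In 6 of 12 groups the highest library was 4.39-fold to 5.14-fold the lowest, with 1 library apart from the other two, and in the other 6 groups this ratio was 1.02 to 1.1. Of genes with a mean of at least 10 CPM in a group, 0.988% to 1.35% had a ratio of 3 or more. None of the other 9 genes did so in any group, and for PDCD1LG2 the ratio was 1.03 to 1.35 in the same libraries. How reads were divided among transcripts and overlapping genes in the counting is not given in the sources used here, and its part in these uneven levels was not tested. TIMMDC1 was uneven as well in some groups, for example with 3723, 1315 and 1281 counts with fludarabine in JVM2.

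**Figure D3:**
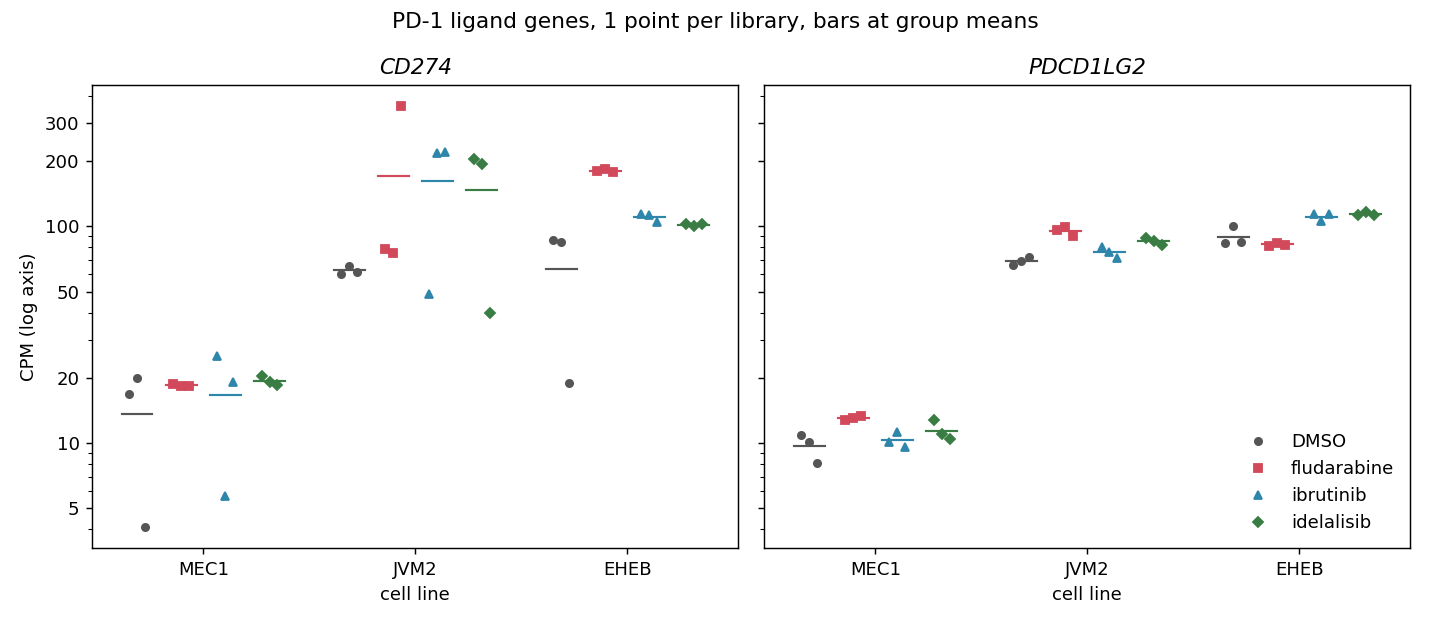
CD274 (left) and PDCD1LG2 (right) in each of the 36 libraries, in CPM on a shared log axis, with symbols for the treatment and bars at group means. In 6 groups of CD274 the highest library is 4.39-fold or more the lowest, while the libraries of every PDCD1LG2 group lie within 1.35-fold of each other.

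Of the 9 comparisons of a drug with DMSO, CD274 passed in 1, fludarabine in EHEB, with 179.7, 183.5 and 178.3 CPM, 2.87-fold above DMSO (1.52, SE 0.40, edgeR adjusted p = 0.0111). The call was lost in the fit of only the 6 libraries of the comparison (edgeR adjusted p = 0.0541) and in the joint fit (edgeR adjusted p = 0.0699). Without the low DMSO library EHEB_135 the difference was smaller and more precise, at 1.08 (edgeR adjusted p = 5.98e-07), and ibrutinib (0.37, edgeR adjusted p = 0.00158) and idelalisib (0.25, edgeR adjusted p = 0.00601) passed as well. In JVM2 the log2 fold changes of 1.47, 1.37 and 1.23 with fludarabine, ibrutinib and idelalisib did not pass (edgeR adjusted p = 0.144, 0.218 and 0.223), and the first was 0.30 (edgeR adjusted p = 0.768) without JVM2_96. MEC1 had 0.41, 0.32 and 0.56 (edgeR adjusted p = 0.557, 0.642 and 0.382). Between the DMSO groups, CD274 was called lower in MEC1 than in JVM2 (−2.21, edgeR adjusted p = 0.0142) and than in EHEB (−2.24, edgeR adjusted p = 0.0125), the latter with overlapping libraries. A long noncoding gene, ENSG00000286162, lies across both genes on the other strand and was not analysed here.

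PDCD1LG2 moved by at most 1.38-fold against DMSO. In JVM2 it had 66.4, 69.3 and 72.5 CPM with DMSO, 95.9, 99.3 and 90.1 with fludarabine (0.47, SE 0.058, edgeR adjusted p = 6.16e-05), and 88.6, 85.9 and 82.3 with idelalisib (0.30, edgeR adjusted p = 0.00168). Both groups stood above DMSO without overlap. In EHEB ibrutinib and idelalisib raised it from 84.13, 99.96 and 84.83 CPM to 113.6, 105.5 and 113.8 (0.31, edgeR adjusted p = 0.00808) and to 113.0, 116.8 and 112.4 (0.34, edgeR adjusted p = 0.00238), while fludarabine gave 81.6, 83.7 and 82.1 (−0.11, edgeR adjusted p = 0.233). The level was low in MEC1, at 10.9, 10.2 and 8.06 CPM with DMSO and 12.8, 13.1 and 13.4 with fludarabine. That difference (0.40, edgeR adjusted p = 0.0245) was lost without MEC1_39 (0.28, 0.0953), MEC1_47 (0.40, 0.0554) or MEC1_48 (0.38, 0.0681). Idelalisib in MEC1 (0.30, edgeR adjusted p = 0.0701) passed in the joint fit (0.23, 0.03), with the stricter filter (0.37, 0.0284) and without MEC1_37 (0.38, 0.0448).

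Whether a drug acted differently in the 3 lines was tested as the interaction of line and drug on 18 libraries per drug. With fludarabine 9 of the 10 genes passed, beside 39.1% of all genes tested, with ibrutinib 6, beside 33.6%, and with idelalisib 7, beside 45.7%. CD27 and CD83 differed between lines with all 3 drugs, as did CD40, CD80, CD58 and CD70. CD274 passed with none (edgeR adjusted p = 0.553, 0.659 and 0.754), and CD86 and PDCD1LG2 passed with fludarabine alone. Among the clearest were CD27 and CD70 with fludarabine (edgeR adjusted p = 6.82e-09 and 1.02e-08), where CD70 fell in MEC1 and rose in EHEB. CD80 with fludarabine was the least clear (edgeR adjusted p = 0.0329) and was lost under library size scaling (0.0608) and without EHEB_143 (0.0852), EHEB_144 (0.0508), JVM2_95 (0.0632) or JVM2_96 (0.0568), and CD58 with fludarabine (0.0172) was lost under library size scaling (0.0566). CD86 with idelalisib (0.139) passed without JVM2_87 (0.0392) or JVM2_240 (0.0301).

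Idelalisib and ibrutinib, given at 10 and 5 µM, were compared directly because their libraries lie in the same numbered series. CD27 was higher with idelalisib in all 3 lines, by 1.34-fold in MEC1 (0.42, SE 0.067, edgeR adjusted p = 0.00263), 1.3-fold in JVM2 (0.38, SE 0.087, edgeR adjusted p = 0.0129) and 1.85-fold in EHEB (0.89, SE 0.101, edgeR adjusted p = 0.000173). The JVM2 call was lost without JVM2_234 (0.31, edgeR adjusted p = 0.0541). In all, 3 of the 10 genes were higher and 0 lower in MEC1, beside 6.01% and 9.37% of all genes, 2 and 0 in JVM2, beside 8.21% and 10.5%, and 2 and 0 in EHEB, beside 6.77% and 9.09%. CD70 was higher with idelalisib in MEC1 (0.31, edgeR adjusted p = 0.00841) and EHEB (0.24, edgeR adjusted p = 0.0064) but not in JVM2 (0.0089, edgeR adjusted p = 0.932). CD83 was 1.42-fold higher in JVM2 (0.50, edgeR adjusted p = 0.000515), and CD58 was 1.3-fold higher in MEC1 (0.37, edgeR adjusted p = 0.0147). The CD58 call was lost without MEC1_184 (0.30, 0.0786), MEC1_190 (0.29, 0.0721) or MEC1_192 (0.35, 0.0529), and that of CD70 in MEC1 without MEC1_192 (0.24, 0.0505). Library size scaling lowered the median of all genes in MEC1 to −0.17 and the share of higher calls from 39.1% to 11.3%, and the 10 genes then split 1 higher and 3 lower. Under it CD58 (0.20, 0.112) and CD70 (0.14, 0.0712) missed the threshold, and CD40 (−0.27, 0.0359), ICAM1 (−0.36, 0.00704) and CD83 (−0.23, 0.0365) passed as lower.

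**Figure D4:**
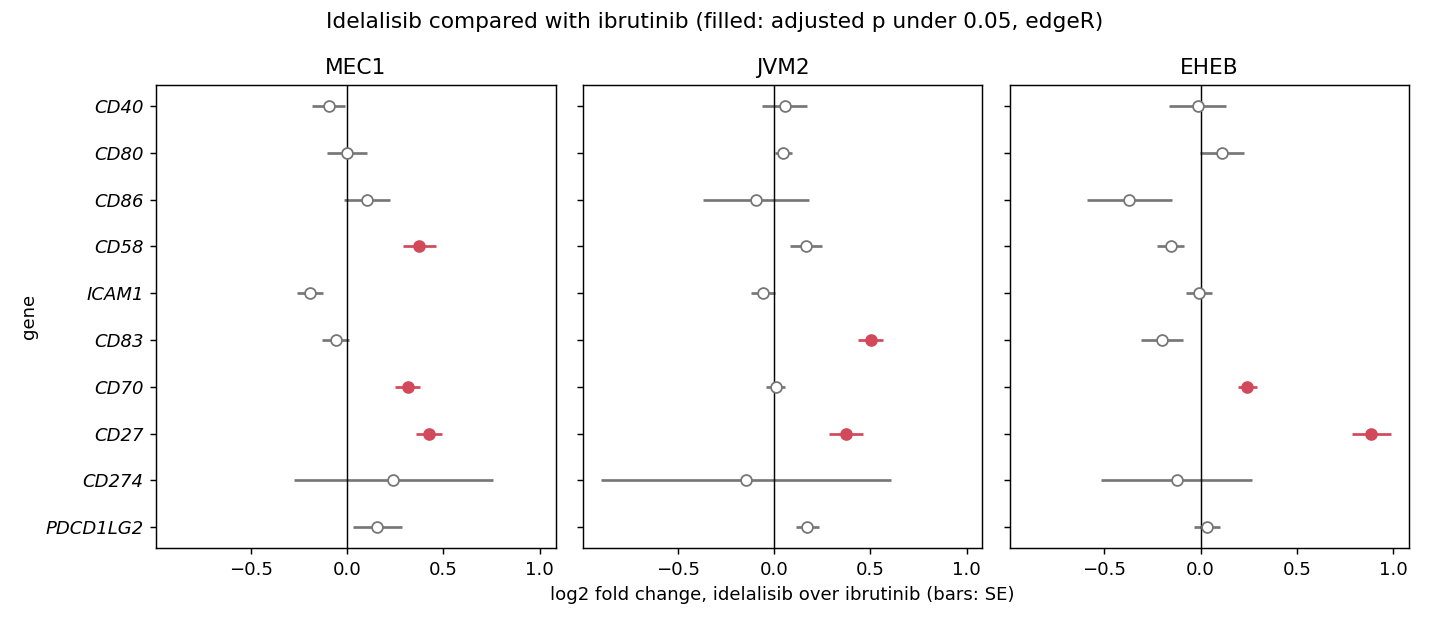
log2 fold change of each gene with idelalisib over ibrutinib in each line, with bars for the SE. Filled points passed an adjusted p of 0.05 in edgeR, and all of them lie to the right of 0. CD27 is filled in all 3 panels, and the wide bars belong to CD274.

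The other genes of these pathways were taken from lists written by role, with earlier results of these data known. The 3 genes of each list called most often are named. The counts of each list stand beside the share of all genes called higher and lower, as a description and not a test. Of 8 tumour necrosis factor ligands and receptors of costimulation, 6 were tested, and fludarabine called 2 higher and 1 lower in MEC1, 2 and 1 in JVM2 and 4 and 0 in EHEB, where all genes had 21.2% and 22.7%, 23.9% and 23.3%, and 18.4% and 19.2%. TNFSF4, the OX40 ligand, went from 38.99 to 174.8 CPM with fludarabine in JVM2 (2.18, edgeR adjusted p = 2e-09) and from 11.25 to 54.71 in MEC1 (2.25, edgeR adjusted p = 6.5e-08). It also rose with fludarabine in EHEB (1.09, edgeR adjusted p = 5.29e-07). Both kinase inhibitors lowered it in JVM2 (−1.05 and −0.67) and EHEB (−0.68 and −0.94). In MEC1 it rose with idelalisib (0.81, edgeR adjusted p = 1.93e-05) and was not called with ibrutinib (−0.11, edgeR adjusted p = 0.341). TNFRSF9, the receptor 4-1BB, rose with fludarabine in MEC1 (2.58) and EHEB (1.55) and gave 0.65 in JVM2 (edgeR adjusted p = 0.153). TNFSF9, the ligand of 4-1BB, rose with fludarabine in JVM2 (0.38) and EHEB (0.48) and fell there with both inhibitors, by 0.24 to 0.86 on the log2 scale. With ibrutinib the list had 3 higher and 0 lower in MEC1, 0 and 3 in JVM2 and 0 and 3 in EHEB (all genes 23.7% and 23.9%, 14.5% and 15.0%, and 8.50% and 11.2%). With idelalisib it had 2 and 1, 0 and 2, and 0 and 2 (all genes 27.6% and 27.4%, 21.6% and 22.6%, and 15.1% and 18.2%).

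Among 10 further B7 and butyrophilin genes, of which 8 or 9 were tested, fludarabine called 0 higher and 3 lower in MEC1, 0 and 0 in JVM2 and 1 and 1 in EHEB, beside 18.4% to 23.9% of all genes in each direction. In EHEB both inhibitors called 4 of 8 higher and 0 lower, beside 8.50% and 11.2% of all genes with ibrutinib and 15.1% and 18.2% with idelalisib. ICOSLG, the ligand of ICOS, rose there from 31.84 to 54.95 CPM with ibrutinib (0.79, edgeR adjusted p = 0.000516) and to 54.6 with idelalisib (0.77, edgeR adjusted p = 0.000254), and fell with both in MEC1 (−0.64 each). VSIR, which encodes the checkpoint protein VISTA, likewise fell in MEC1 (−0.59 and −0.46) and rose in EHEB (0.32 and 0.56). BTN3A1, a butyrophilin seen by γδ T cells, fell with fludarabine in MEC1 (−1.10, edgeR adjusted p = 1.98e-06). The counts of this list with ibrutinib were 0 higher and 3 lower in MEC1 and 1 and 2 in JVM2, and with idelalisib 1 and 2 in MEC1 and 2 and 0 in JVM2, beside 14.5% to 27.6% of all genes in each direction.

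All 10 genes of the adhesion and SLAM list were tested. With fludarabine 2 were higher and 4 lower in MEC1, 2 and 7 in JVM2 and 1 and 7 in EHEB, beside 21.2% and 22.7%, 23.9% and 23.3%, and 18.4% and 19.2% of all genes. The list medians were −0.14, −0.55 and −0.71, and those of all genes 0.056, 0.056 and 0.020. CD48, a ligand of the SLAM family, fell with fludarabine in MEC1 from 706.1 to 264.7 CPM (−1.45), in JVM2 from 1087 to 398.8 (−1.44) and in EHEB from 601.9 to 308.8 (−0.95), with edgeR adjusted p of at most 2.08e-07. ITGB2, the β chain of LFA-1, fell with both inhibitors in MEC1 (−0.80 and −0.88) and EHEB (−0.89 and −0.84). In JVM2 it fell with idelalisib (−0.75, edgeR adjusted p = 5.06e-05) and was not called with ibrutinib (−0.24, edgeR adjusted p = 0.066). CD84, another SLAM receptor, was called higher in 8 of the 9 comparisons with DMSO and lower with fludarabine in EHEB (−0.79). With ibrutinib this list had 4 and 4, 1 and 4, and 1 and 3 called higher and lower in MEC1, JVM2 and EHEB, and with idelalisib 5 and 3, 4 and 5, and 3 and 3. All genes had 8.50% to 23.7% higher and 11.2% to 23.9% lower with ibrutinib, and 15.1% to 27.6% higher and 18.2% to 27.4% lower with idelalisib.

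The list of CD40 signalling held 8 genes, all tested. Fludarabine called 2 higher and 2 lower in MEC1, 1 and 1 in JVM2 and 2 and 2 in EHEB, ibrutinib 2 and 2, 2 and 1, and 2 and 1, and idelalisib 2 and 3, 4 and 0, and 3 and 1. Of all genes, 18.4% to 23.9% were called in each direction with fludarabine, 8.50% to 23.9% with ibrutinib and 15.1% to 27.6% with idelalisib. TRAF1, an adaptor of CD40 and other tumour necrosis factor receptors, was called higher in 9 of the 9 comparisons with DMSO, by 0.33 to 0.97. In MEC1 it averaged 81.44 CPM with DMSO and 117.5, 154.6 and 112.2 with fludarabine, ibrutinib and idelalisib. JVM2 averaged 314.6, 427.5, 479.2 and 541.0 CPM in that order, and EHEB 499.4, 710.5, 714.3 and 630.5. TRAF2 was called lower in 5 comparisons, all 3 of MEC1 (−0.63, −0.47 and −0.60) and fludarabine in JVM2 (−0.33) and EHEB (−0.23). TRAF5 rose with both inhibitors in MEC1 (0.62 and 0.91) and JVM2 (0.46 and 0.49) and fell with all 3 drugs in EHEB (−0.88, −0.28 and −0.32). The list medians lay between −0.19 and 0.28 in the 9 comparisons, and those of all genes between −0.0014 and 0.081.

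Of 9 other inhibitory surface genes and partners of PD-L1, LGALS9, which encodes galectin-9, rose with fludarabine in all 3 lines (0.74, 0.96 and 0.27) and fell with idelalisib in EHEB, from 95.04 to 49.72 CPM (−0.94). CD200, an inhibitory ligand common on CLL cells, rose with both inhibitors in EHEB (0.58 and 0.88) and fell with every drug in JVM2 (−0.69, −0.52 and −0.33). BTLA, an inhibitory receptor of B and T cells, fell with fludarabine in MEC1 (−0.998), JVM2 (−1.45) and EHEB (−1.61). With fludarabine this list had 5 higher and 2 lower, 3 and 2, and 4 and 3 in MEC1, JVM2 and EHEB, with ibrutinib 4 and 0, 2 and 3, and 2 and 2, and with idelalisib 3 and 0, 2 and 5, and 2 and 2, of 8 genes tested in MEC1 and 9 in the other lines. The shares of all genes were those given for the CD40 list. In the list of 9 receptors best known from T cells, 6 or 7 were tested, mostly at low levels. PDCD1, the receptor PD-1, had 14.06 CPM in MEC1, 8.02 in JVM2 and 4.27 in EHEB with DMSO and fell with ibrutinib (−1.39, −1.22 and −2.93) and idelalisib (−1.35, −2.02 and −3.66) in each. The EHEB groups then averaged only 0.5549 and 0.3365 CPM. LAG3 fell with both in EHEB from 99.95 to 37.46 and 32.43 CPM (−1.42 and −1.63), and HAVCR2, which encodes TIM-3, fell with both in MEC1 (−0.75 and −0.97). The list had 2 higher and 2 lower, 2 and 2, and 3 and 3 with fludarabine, 1 and 3, 1 and 2, and 0 and 5 with ibrutinib, and 1 and 3, 0 and 4, and 0 and 4 with idelalisib. Of all genes, 18.4% to 23.9% passed in each direction with fludarabine, and 11.2% to 23.9% and 18.2% to 27.4% were lower with ibrutinib and idelalisib. Those called higher were 8.5% to 23.7% with ibrutinib and 15.1% to 27.6% with idelalisib.

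For each of the 10 genes, the gene with the most similar pattern was taken as that with the smallest root mean square difference of log2 CPM over the 12 group means, centred on the mean of each line, among 11929 genes. As a description, the nearest to ICAM1 was RNF6 (0.0625), to PDCD1LG2 DGKE (0.0712), to CD58 CCDC138 (0.0764), to CD80 CERS4 (0.099), to CD40 THOC1 (0.125), to CD70 TGDS (0.125) and to CD86 DEXI (0.129). For CD27 it was GNG7 (0.295) and for CD83 MCOLN3 (0.251). This difference grows with the size of a gene's own changes, so the values were not ranked between genes. For CD274 it was MT-ND4L (0.161), over group means that carry the uneven libraries.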

How the data were processed

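Total RNA depleted of ribosomal RNA was sequenced in 36 libraries. Per the labels and the study's methods, the authors trimmed reads (Trimmomatic), aligned them to GRCh38 (HISAT2 2.1) and made counts per gene on an Ensembl annotation (StringTie 1.3.4). The deposited table holds estimated counts per gene symbol, all whole numbers, which were used as they are. Rows without a symbol (0.00384% of counts) were left out. Each line was fitted alone (12 libraries) with edgeR 4.0.16 in R 4.3.3: filterByExpr (minimum count 10), TMM, quasi-likelihood tests, Benjamini-Hochberg adjustment over all genes and a threshold of 0.05. DMSO libraries (9) were fitted for the lines, and 18 libraries per drug for interactions. Alternatives were DESeq2 1.42.0, limma-voom (limma 3.58.1), other scalings, filters and samples, and each library left out. Replicates differed by more than counting noise (chi-square per degree of freedom 24.9 to 48.9). Scripts were tested on simulated data. Named genes were the 10 genes, the 3 genes of each list called in most comparisons with DMSO, and the gene with the most similar pattern. Members and lists were chosen with earlier results of these data known. One B cell marker of the design is not reported here.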

Additional observations from a re-analysis of the deposited data

Results flagged for a closer look

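The effects of the drugs differed between the 3 lines for most of the 10 genes, by the test of the interaction of line and drug, adjusted over all genes in edgeR. With fludarabine the adjusted p was 0.0115 for CD40, 0.0329 for CD80, 0.000737 for CD86, 0.0172 for CD58, 0.00554 for ICAM1, 1.84e-07 for CD83, 1.02e-08 for CD70, 6.82e-09 for CD27 and 0.00155 for PDCD1LG2. With ibrutinib edgeR's adjusted p was 7.2e-05 for CD40, 1.86e-05 for CD80, 8.16e-05 for CD58, 2.11e-05 for CD83, 9.01e-06 for CD70 and 1.22e-05 for CD27. With idelalisib it was 0.000725 for CD40, 1.09e-06 for CD80, 6.45e-06 for CD58, 0.00796 for ICAM1, 7.91e-08 for CD83, 6.1e-07 for CD70 and 0.000222 for CD27 (edgeR). Among the calls, the direction itself turned for CD70 with fludarabine, which fell in MEC1 (−0.73) and rose in EHEB (0.46), and with idelalisib, lower in JVM2 (−0.81) and higher in MEC1 (0.17, a call lost in 10 fits with a library left out). It also turned for CD80, called lower in JVM2 and higher in EHEB with fludarabine (−0.19 and 0.37), ibrutinib (−0.19 and 0.64) and idelalisib (−0.14 and 0.75), where the JVM2 calls were lost under library size scaling and in the joint fit. The lines also differed in exposure time, and the 2 cannot be told apart.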

How the results depend on the processing

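The number of the 10 genes called stayed within 1.5 times its value under DESeq2, limma-voom, other scalings, filters and sample choices. With a library left out, it ranged from 1 to 4 for idelalisib against ibrutinib in MEC1 (3 with all libraries) and from 1 to 2 in JVM2 (2 with all libraries). Under library size scaling without TMM, the log2 fold changes with fludarabine in JVM2 turned to 0.00949 for CD80 and 0.178 for CD70, where that scaling moved the median of all genes to 0.26. Calls lost without single libraries stand beside their results. No paired analysis was possible because the groups share no replicate numbers. With 3 libraries per group, small changes of genes with uneven libraries, CD274 above all, could not be settled.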
